A study of Mus musculus with 2 samples.

Results

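Hepatocyte barcodes rich in Malat1 were taken from a 10x Genomics 3′ single-cell RNA-seq experiment on mouse liver, in which each barcode stands for a droplet and each unique molecular identifier (UMI) for a captured RNA molecule. A barcode was chosen when it held at least 1000 UMIs from at least 400 genes, at most 30% of UMIs from mitochondrially encoded genes, at least 2 UMIs of Cps1 (the first enzyme of the urea cycle), no UMI of 10 genes marking macrophages, endothelium, T cells, stellate cells, B cells, neutrophils and dendritic cells (Clec4f, Cd5l, C1qa, Stab2, Ptprb, Skap1, Dcn, Ebf1, S100a9 and Flt3), at most 2 UMIs of the bile duct genes Pkhd1 and Bicc1, and at least 1% of its UMIs from Malat1. These conditions selected 2325 of 190318 deposited barcodes: 1411 of 100171 in the WT library and 914 of 90147 in the N-LKO library. The members were selected on measured counts of Malat1, Cps1 and the marker genes, so the levels of these genes are given as a description. Hepatocyte barcodes that met every condition except the Malat1 share, 3382 in WT and 916 in N-LKO, are called Malat1-poor and serve as the nearest comparison.

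The WT library came from liver of control mice and the N-LKO library from liver plus tumor of mice with a liver-specific knockout of Nus1, which encodes the Nogo-B receptor (NgBR). In N-LKO mice, Cre driven by the albumin promoter removes the loxP-flanked first exon of Nus1. The mice were male, on a C57BL/6 background, and had been fed for 16 weeks a diet that the sample titles call HFD and the treatment labels call WD. Hepatocytes and nonparenchymal cells were mixed at equal parts for WT, and cells from the tumor were added for N-LKO, so the share of hepatocytes in each library was set by the mixing. There was 1 library per genotype, with 85522287 UMIs in WT and 87575064 in N-LKO over all deposited barcodes, and the number of mice behind each was not given in the sources used here. Every difference between WT and N-LKO below therefore compares 2 libraries and has no replicate check. Tissue, dissociation, tumor cells and genotype cannot be told apart in it. Intervals in parentheses are 95% intervals that cover counting error only. The exception is a list median, whose interval covers the spread among the genes of the list.

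Malat1 is a long noncoding RNA that is transcribed at high levels in most cells and stays in the nucleus, as does Neat1, the RNA that holds paraspeckles together. A barcode with a large share of Malat1 is commonly read as one that holds more nuclear than cytoplasmic RNA, since mRNAs for abundant secreted and mitochondrial proteins lie mainly in the cytoplasm, while unspliced transcripts of long genes lie in the nucleus. Hepatocytes make most plasma proteins, among them albumin, apolipoproteins and, in mice, the major urinary proteins, under transcription factors such as Hnf4a. NgBR and its partner DHDDS form the cis-prenyltransferase that makes dolichol, the lipid carrier on which N-glycans are built.

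Malat1-rich barcodes were 29.4% (28.2 to 30.8, Clopper-Pearson) of 4793 hepatocyte barcodes in WT and 49.9% (47.6 to 52.3) of 1830 in N-LKO. Near the 1% line, the closest barcode outside held 0.999% Malat1 in WT and 0.998% in N-LKO, and the closest inside 1.00% in both. Between 0.9 and 1% lay 213 WT and 54 N-LKO barcodes, and between 1 and 1.1% lay 162 and 76. The members had a median of 1704 UMIs, 864 genes and 1.58% Malat1 in WT, and of 1614 UMIs, 962 genes and 1.74% in N-LKO. The shares depended on depth and on markers of other cells. With at least 2000 UMIs they were 38.2% in WT and 42.1% in N-LKO, and without any UMI of 61 further markers of other cell types 25.2% and 33.2%. Only 1 barcode sequence occurred among the members of both libraries, against 2499 among all deposited barcodes.

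**Figure D1:**
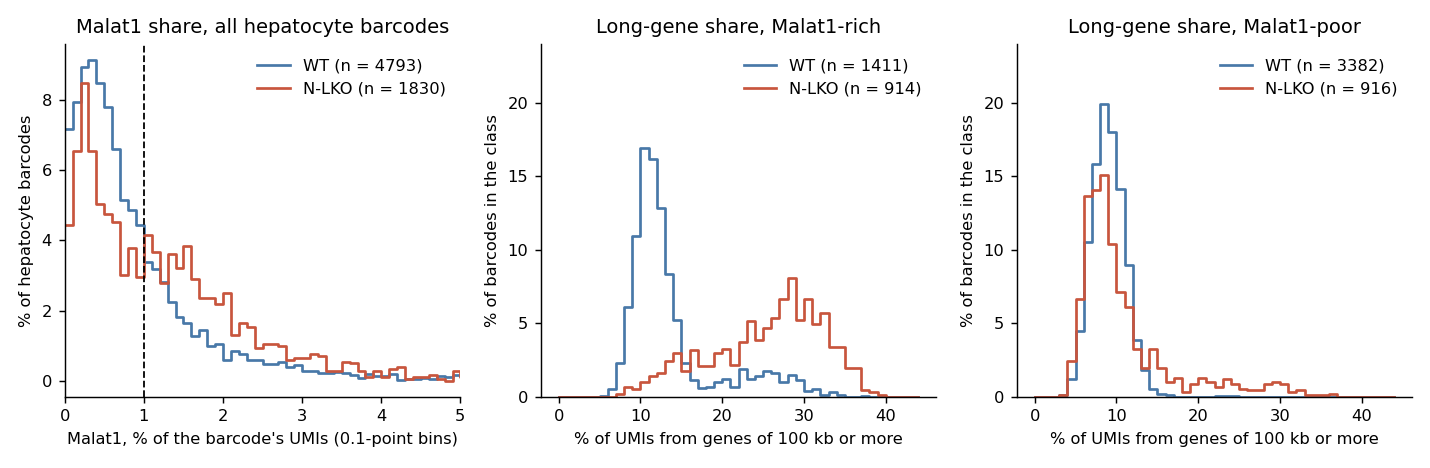
Distribution over barcodes of the share of UMIs from Malat1 (left, all hepatocyte barcodes, dashed line at the 1% limit, axis ended at 5%) and of the share from genes spanning 100 kb or more (middle, Malat1-rich; right, Malat1-poor), as a percentage of the barcodes in each class of WT (blue) and N-LKO (red). Of the WT members 840 lie between a long-gene share of 10 and 15%, while 705 of 914 N-LKO members lie at 20% or above.

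The label was checked against hepatocyte genes by comparing the members with kept barcodes that carried at least 1 UMI of the 10 marker genes and at most 1 of Cps1 (7293 in WT, 13683 in N-LKO; called non-hepatocyte barcodes). Levels are given as CPM, the UMIs of a gene scaled to a barcode class total of 1000000, summed over the barcodes of a class. Hnf4a was at 186 CPM (170 to 203) in WT members and 229 CPM (207 to 253) in N-LKO members, 2.60-fold and 4.22-fold above the non-hepatocyte barcodes of the same library. Abcb11, the bile salt export pump, was 7.16-fold and 6.16-fold above them, and Ghr, the growth hormone receptor, 7.24-fold and 6.02-fold. The short, abundant secretory mRNAs separated the members less well in N-LKO. Alb was 3.84-fold above the non-hepatocyte barcodes in WT and 1.46-fold in N-LKO, Ttr (transthyretin) 1.85-fold and 1.41-fold, and Apoa1 (the main HDL apolipoprotein) 2.41-fold and 1.27-fold. In N-LKO members Alb, at 5178 CPM, was also below its level of 8727 CPM in barcodes with under 500 UMIs. These barcodes were taken as the profile of RNA free in the suspension, but whether they hold mainly such RNA was not tested. Their median mitochondrial share was 18.9% in WT and 34.3% in N-LKO. With that profile and marker lists of other cells, the upper limit of free RNA in the members was 62.7% in WT and 51.3% in N-LKO. It was set by the least enriched such list with at least 50 UMIs, stellate in WT and erythroid in N-LKO. This limit is not the lowest that the profile allows. Gm42418, outside these lists, took 0.852% of UMIs in WT members and 5.70% in WT barcodes under 500 UMIs. In N-LKO it took 3.72% and 12.4%. The name hepatocyte thus rested on Cps1 and on long hepatocyte genes in N-LKO, and the counts hold no measure of where in the cell an RNA lay.

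Markers of other cells differed between the libraries, in the members and in barcodes under 500 UMIs. Members with 3 or more UMIs of the 61 further markers were 25.2% in WT and 49.8% in N-LKO, and members with none were 414 and 114. The summed level of 10 B and plasma cell markers was 437 CPM in WT members and 1267 CPM in N-LKO members, of 10 T and NK markers 323 and 500 CPM, of 10 Kupffer and macrophage markers 296 and 787 CPM, of 10 endothelial markers 298 and 564 CPM, of 10 stellate markers 89.8 and 128 CPM, of 9 dendritic markers 441 and 926 CPM, of 8 neutrophil markers 16.2 and 81.8 CPM, of 8 cholangiocyte markers 57.4 and 88.9 CPM, and of 6 proliferation markers 18.5 and 61.0 CPM. The 6 erythroid markers went the other way, with 147 and 117 CPM. In barcodes under 500 UMIs the macrophage list summed to 309 and 701 CPM, the endothelial list to 249 and 511 CPM, the B and plasma list to 126 and 533 CPM, the T and NK list to 188 and 333 CPM and the dendritic list to 404 and 840 CPM. The neutrophil list, at 40.7 and 155 CPM there, and the stellate list, at 143 and 233 CPM, lay above their level in the members of both libraries. The macrophage list gave at least 2 UMIs in 10.3% of the WT members but in 23.5% of those of N-LKO. In WT members 3 neutrophil, 4 cholangiocyte and 1 erythroid marker had no UMI. Immunoglobulin UMIs were held by few barcodes: 5 WT members with at least 10 such UMIs carried 76.0% of them and 6 N-LKO members carried 83.0%. Median mitochondrial shares were 17.7% and 14.2%. The part of these differences in the results below was not tested, except where values without the marker-carrying barcodes are given.

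The clearest feature that no condition named was gene length. The shares below still include genes of the rule, among them Cps1 (108 kb) and Malat1 (6.98 kb), so they are not independent of it. Cps1 was at 4166 CPM in WT members and 3263 CPM in N-LKO members. Genes that span 100 kb or more gave 14.0% of the members' UMIs in WT and 26.2% in N-LKO, against 8.97% and 10.6% in Malat1-poor barcodes. Genes under 10 kb gave 30.9% and 20.3% in the members. Per barcode, the median long-gene share was 11.9% in WT members, with quartiles of 10.3 and 14.2%, and 26.8% in N-LKO members, with quartiles of 20.7 and 30.6%. A long-gene share of at least 20% was found in 212 of 1411 WT members and in 705 of 914 N-LKO members (77.1%). Among Malat1-poor barcodes it was found in 4 in WT and 96 in N-LKO. The same Malat1 limit therefore selected barcodes of different makeup in the 2 libraries, with a long-gene share in N-LKO that few Malat1-poor barcodes reached. Long noncoding RNAs other than Malat1 and Gm42418 gave 1.47% of UMIs in WT members and 2.35% in N-LKO members, against 0.999% and 1.07% in Malat1-poor barcodes.

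Binning the hepatocyte barcodes by their Malat1 share showed where each library changed. In WT, Alb was 23698 CPM under 0.5% Malat1, 25000 CPM from 0.5 to 1%, 24894 CPM from 1 to 2%, 18134 CPM from 2 to 4% and 9360 CPM from 4 to 8%. In N-LKO, Alb was 16930, 11715, 5772, 4392 and 3843 CPM in the same bins. Albumin mRNA was thus nearly level across the 1% line in WT and already low there in N-LKO. Neat1 went the other way, from 334 to 2867 CPM between the lowest and the 4 to 8% bin in WT and from 317 to 3996 CPM in N-LKO. Egfr, the epidermal growth factor receptor and a long gene, went from 361 to 1603 CPM and from 560 to 2433 CPM. The 75 measured nuclear-encoded genes of the respiratory chain summed to 28369 CPM in the lowest WT bin and 13307 CPM in the 4 to 8% bin, and to 30158 and 4957 CPM in N-LKO. The bins from 4 to 8% held 86 and 42 barcodes, and a bin over 8% held 3 WT barcodes and is not read. Since Malat1 is part of each barcode's total, these levels are a description of the range that the rule cuts.

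**Figure D2:**
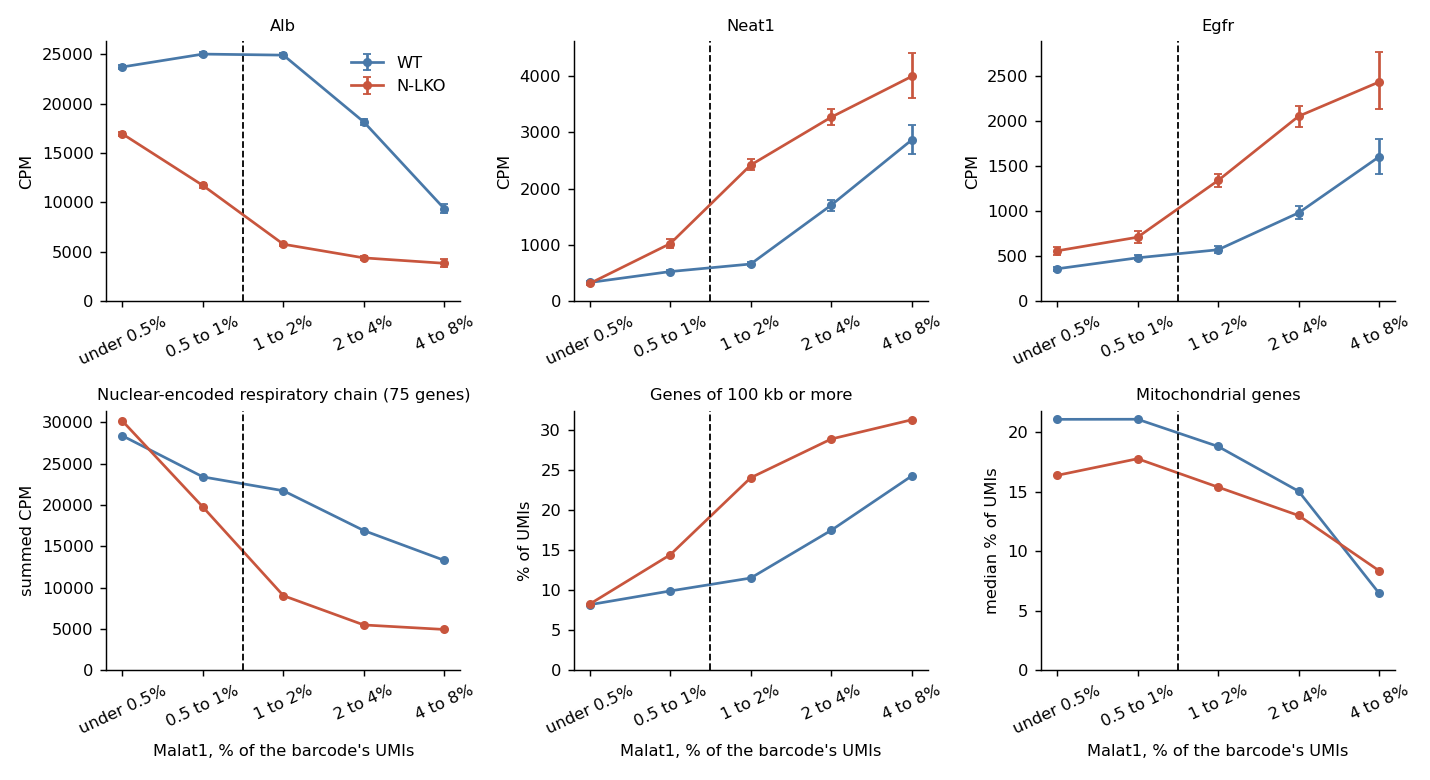
Levels in WT (blue) and N-LKO (red) hepatocyte barcodes binned by Malat1 share, with the 1% limit dashed. Alb, Neat1 and Egfr are in CPM with 95% Poisson intervals, the respiratory chain in summed CPM, genes of 100 kb or more in percent of UMIs and mitochondrial genes as the median percent per barcode; bins under 20 barcodes are left out. Alb falls and Neat1, Egfr and the long-gene share rise at a lower Malat1 share in N-LKO than in WT.

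Malat1-rich barcodes differed from Malat1-poor ones of their own library far more in N-LKO than in WT. A gene counted as tested when it reached 5 CPM in at least 1 of the classes compared, log2 ratios used sums with 0.5 UMI added, and a gene was called past a 2-fold difference. In WT, 698 of 9868 genes (7.07%) were at least 2-fold higher in the members and 44 (0.446%) at least 2-fold lower. In N-LKO, 3950 of 11219 (35.2%) were higher and 1185 (10.6%) lower. The median log2 ratio over all tested genes was 0.21 and 0.63. Because classes were split on Malat1, these counts describe the split. Genes named here were those with the largest ratio in both libraries, by the interval bound nearest 0.

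The genes highest in the members of both libraries were mostly noncoding RNAs. They were Ighm, Gm20528, Sorbs2os, Lrrc4, Egfros, 5330438D12Rik, Gm31508, Gm36975, Gm31356 and Neat1. Gm20528 had 109 CPM in members and 18.4 CPM in Malat1-poor barcodes of WT, and 97.8 and 18.2 CPM in N-LKO. Egfros, which lies antisense to Egfr, had log2 ratios of 2.55 (1.98 to 3.19) in WT and 2.44 (1.45 to 3.72) in N-LKO, and Sorbs2os of 2.12 (1.70 to 2.55) and 3.37 (2.26 to 4.97). Neat1 had ratios of 1.37 (1.29 to 1.45) and 2.27 (2.18 to 2.37). Whether the counting used strand was not stated, so reads of an antisense gene and its partner may be mixed. Of 439 tested long noncoding RNAs in WT, 36.4% were at least 2-fold higher in the members, against 5.67% of 9416 protein-coding genes, and in N-LKO 64.2% of 611 against 33.5% of 10593. Ighm, the immunoglobulin mu chain, did not keep its direction: its WT log2 ratio of 3.51 was −0.20 with at least 5 UMIs of Cps1 and −0.28 with at least 2000 UMIs.

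The genes lowest in the members of both libraries were short genes for small proteins, most of them mitochondrial. They were Gm17634, Fis1, Mrps24, Romo1, Atp5e, Uqcr10, Cox7a2, Ndufa4, Dbi and Urah. Ndufa4, a cytochrome oxidase-associated subunit, had log2 ratios of −0.49 (−0.56 to −0.42) in WT and −2.42 (−2.57 to −2.28) in N-LKO. Dbi, the acyl-CoA-binding protein, had −0.46 and −2.28. Of 75 respiratory chain genes, 62 were lower in WT members with an interval that excludes 0, with a median log2 ratio of −0.38. None of them reached 2-fold there, against 0.446% of all genes. In N-LKO 68 were at least 2-fold lower against 10.6% of all genes, with a median of −1.75. Ribosomal protein genes had medians of −0.31 in WT and −0.91 in N-LKO over 78 genes. Other secreted plasma proteins had medians of −0.11 and −1.18 over 21 genes, and growth factor receptors 0.56 and 1.42 over 14. Mitochondrially encoded mRNAs moved little in comparison, with medians of −0.29 and −0.21 over 13. Of these 13, mt-Nd6 stood on the other side of 0, with log2 ratios of 0.89 (0.84 to 0.93) in WT and 0.44 (0.33 to 0.54) in N-LKO. It is the only one of them encoded on the light strand.

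The N-LKO members were next compared with the WT members. Of 11249 tested genes, 3473 (30.9%) were at least 2-fold higher in N-LKO and 938 (8.34%) at least 2-fold lower, with a median log2 ratio of 0.54. In Malat1-poor barcodes 1079 of 10062 (10.7%) were higher and 237 (2.36%) lower, with a median of 0.22. Since the median of all genes was above 0, lists are read against it. The direction followed gene span: the 2250 tested genes of the shortest span, with a median of 5.21 kb, had a median log2 ratio of −0.31, and the 2249 longest, with a median of 137 kb, one of 1.07. In Malat1-poor barcodes the same groups had 0.16 and 0.41.

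To compare barcodes of like makeup, both libraries were weighted to the same distribution of long-gene share, using 1130 WT and 857 N-LKO members with shares between 10 and 35%. This alternative was added after the data had been seen. It took the median of all genes to 0.17 and the genes at least 2-fold higher to 2312, and its value is given below beside many of the results, as a log2 ratio. Genes of 100 kb or more are themselves part of the matched share, so their summed share is made equal by construction, and a lower ratio for such a gene is a description. Weighting the N-LKO members to the WT distribution of Malat1 share instead left the median at 0.53 and the genes at least 2-fold higher at 3449. Among members with a long-gene share of 25 to 30% (99 in WT, 275 in N-LKO), Alb was 6650 and 4157 CPM, the respiratory chain 12005 and 6007 CPM, and Egfr 1716 and 1722 CPM.

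**Figure D3:**
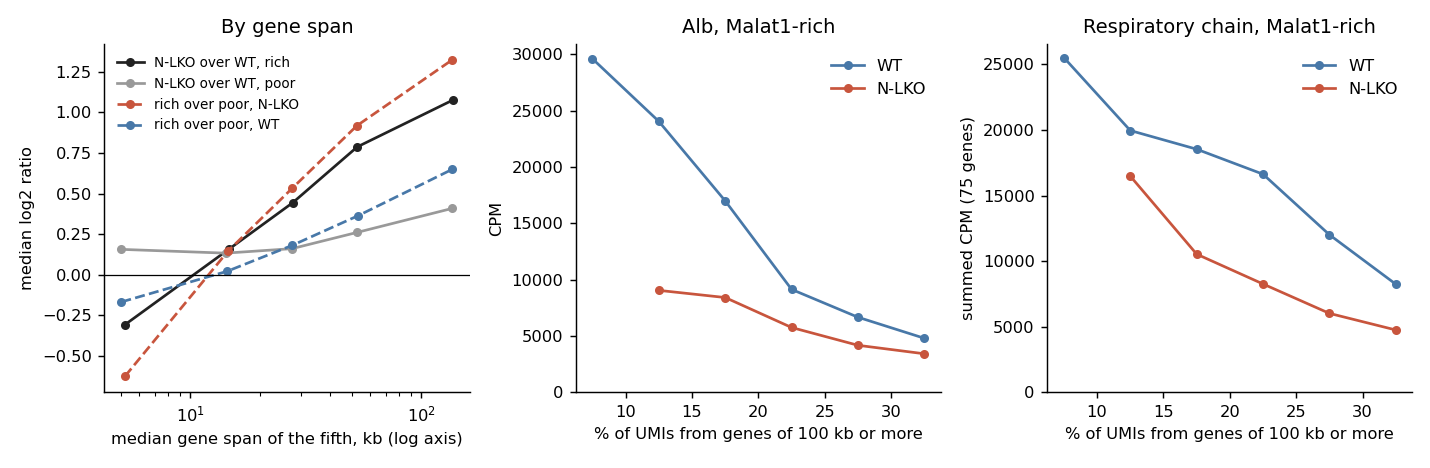
Left, median log2 ratio of tested genes in 5 groups of increasing gene span (log axis, kb), for N-LKO over WT and for Malat1-rich over Malat1-poor. Middle and right, Alb (CPM) and the summed level of 75 respiratory chain genes (CPM) in Malat1-rich barcodes of WT (blue) and N-LKO (red), binned by the share of UMIs from genes of 100 kb or more; bins under 20 barcodes are left out. Ratios rise with gene span, and at an equal long-gene share N-LKO lies below WT for Alb and the respiratory chain.

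Nus1, the targeted gene, was at 63.4 CPM (54.2 to 73.8; 168 UMIs) in WT members and 29.0 CPM (21.5 to 38.4; 49 UMIs) in N-LKO members, a log2 ratio of −1.12 (−1.62 to −0.66). In Malat1-poor barcodes the ratio was −0.85 (−1.23 to −0.49). By Malat1 share, Nus1 was at 68.6 CPM under 0.5%, 68.3 CPM from 1 to 2% and 60.1 CPM from 2 to 4% in WT, and at 39.3, 36.0 and 20.4 CPM (12 UMIs) in N-LKO. From 4 to 8% it had 4 UMIs in WT and 1 in N-LKO, too few to read. The floxed exon is the first, at the 5′ end, while the libraries count 3′ ends, so these counts do not measure the deletion itself. Non-hepatocyte barcodes, which albumin-Cre should not reach, had 84.4 and 79.9 CPM in the WT and N-LKO library. Dhdds was at 17.4 CPM (12.7 to 23.2) and 17.8 CPM (12.0 to 25.4), a ratio of 0.04 whose interval ran from −0.68 to 0.73. At matched long-gene share the ratio of Dhdds was −1.01 (−1.87 to −0.30), and that of Nus1 −0.80 (−1.31 to −0.34).

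The dolichol and N-glycosylation list lay below the median of all genes. Of 31 tested genes, 1 was at least 2-fold higher in N-LKO members against 30.9% of all genes, and 4 at least 2-fold lower against 8.34%. The median log2 ratio was −0.09 (−0.41 to 0.41) against 0.54 over all genes, and at matched long-gene share 0.06 against 0.17. Magt1, its most abundant member and an oligosaccharyltransferase subunit, had 165 and 155 CPM in WT and N-LKO members. Ost4, a very small subunit of the same enzyme, was lowest with a log2 ratio of −1.95 (−2.45 to −1.51), which was −0.99 at matched long-gene share. Alg13, a glycosyltransferase subunit of the early pathway, was highest at 1.08 (0.49 to 1.69), and −0.21 in barcodes without further markers of other cells.

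The genes furthest above WT in the N-LKO members formed a set that was also high in Malat1-poor N-LKO barcodes. Glis3, a zinc finger transcription factor, had 8.30 CPM (5.20 to 12.6) in WT members and 295 CPM (269 to 322) in N-LKO members, and 4.22 and 74.9 CPM in Malat1-poor barcodes. Tmem45b had 2 UMIs in WT members and 133 in N-LKO members (0.755 and 78.8 CPM), a log2 ratio of 6.39 (4.82 to 9.77). Sybu, which links vesicles to kinesin, had 5 and 170 UMIs, and Col4a3, a basement membrane collagen chain, 1.51 and 75.9 CPM. Cap2, Gstp2 and Anxa13 had 1 UMI each in WT members and 70, 65 and 64 in N-LKO members. For these 7 genes and the noncoding Gm43305 the log2 ratio was at least 3.70 at matched long-gene share and at least 4.66 in barcodes without further markers. In N-LKO non-hepatocyte barcodes they lay lower than in the members, for example 87.8 CPM for Glis3 and 12.0 CPM for Tmem45b. Gstp2 has a near-identical neighbor, Gstp1, between which counting may split reads. The metallothionein Mt2, also in this set, had 2.26 CPM (0.831 to 4.93) and 114 CPM (98.8 to 132). Ighg3, an immunoglobulin heavy chain, had no UMI in WT members, which allows up to 3 UMIs, and 132 in N-LKO members, where B and plasma cell markers were also higher.

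The genes furthest below WT were led by the major urinary proteins (Mup), liver-made pheromone carriers that depend on growth hormone. Mup3 had 11722 CPM (11592 to 11853) in WT members and 958 CPM (912 to 1006) in N-LKO members, a log2 ratio of −3.61, against −1.40 in Malat1-poor barcodes and −2.28 at matched long-gene share. Mup12 had 543 and 2 UMIs (205 and 1.19 CPM), and Mup7 866 and 10 UMIs. Mup1, Mup11 and Mup17 had ratios of −4.85, −4.09 and −4.16. Mup genes are near-identical copies whose reads may be split or discarded by the counting, so single ratios are uncertain. Mup20, the most abundant, had 30992 and 9152 CPM in members, a ratio of −1.76, but 0.42 in Malat1-poor barcodes. Over the list of growth hormone targets and Mup genes, 22 of 25 tested genes were at least 2-fold lower in N-LKO members against 8.34% of all genes, with a median of −3.46, which was −2.13 without barcodes carrying further markers. Cish, a growth hormone-induced inhibitor of signaling, was higher, with 3 and 21 UMIs. The receptor Ghr had 2804 CPM in WT members and 2505 CPM in N-LKO members, a log2 ratio of −0.16, which was −1.34 at matched share. The other genes furthest below WT were Sult2a8, a liver sulfotransferase (753 and 33.2 CPM), Slco1a1, an organic anion transporter (237 and 16.6 CPM), Etnppl, which breaks down phosphoethanolamine (296 and 22.5 CPM), and the noncoding Gm12718 (103 and 2.37 CPM). For these 4 the log2 ratio was −3.06 or lower at matched long-gene share and −2.34 or lower in Malat1-poor barcodes.

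**Figure D4:**
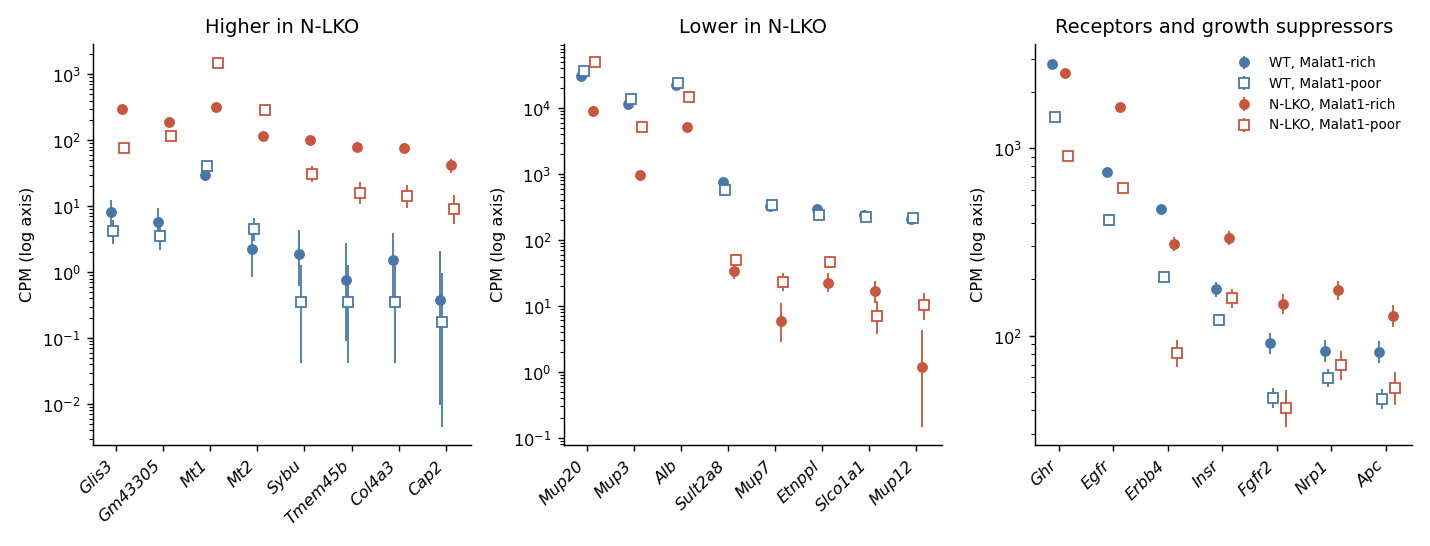
CPM (log axis) with 95% Poisson intervals in Malat1-rich (filled circles) and Malat1-poor (open squares) barcodes of WT (blue) and N-LKO (red). N-LKO lies above WT for the 8 genes on the left in both classes; on the right, the members lie above the Malat1-poor barcodes of their library for Ghr, Egfr, Erbb4, Insr, Fgfr2, Nrp1 and Apc.

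Secreted proteins of hepatocytes were lower in the N-LKO members and hardly so in Malat1-poor barcodes. Alb had 22055 CPM (21876 to 22234) in WT members and 5178 CPM (5070 to 5288) in N-LKO members, a log2 ratio of −2.09, against −0.70 in Malat1-poor barcodes and −1.16 at matched long-gene share. Of 21 secreted plasma proteins outside the acute phase list, 11 were at least 2-fold lower against 8.34% of all genes, and 1 higher against 30.9%. Their median was −1.08 in members, 0.05 in Malat1-poor barcodes and −0.55 at matched share. Serpina1e, an alpha-1 antitrypsin, was lowest (1618 and 200 CPM), and Kng2, a kininogen, highest (126 and 265 CPM). Plg, plasminogen, had 707 and 739 CPM. The Serpina1 genes are near-identical copies. In lipoprotein assembly, Apob, the core protein of VLDL, had 3089 CPM (3022 to 3157) and 1569 CPM (1510 to 1630), and Apoc1 12258 and 2635 CPM, while Mttp, which loads lipid onto Apob, had 133 and 145 CPM, 0.12 and −0.28 at matched share. Of 18 genes of this list 9 were at least 2-fold lower, against 8.34% of all genes. The median was −0.99 in members, −0.40 at matched share and −0.02 in Malat1-poor barcodes.

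Acute phase genes, which the liver turns on in inflammation, differed in N-LKO members by shares near those of all genes. Of 26, 8 were at least 2-fold higher against 30.9% of all genes and 3 at least 2-fold lower against 8.34%, with a median of 0.30 against 0.54. That median was 0.03 without barcodes carrying further markers. It was −1.74 with free RNA subtracted at its upper limit, over the genes that kept more than 3 UMIs. In contrast, in Malat1-poor barcodes 10 were at least 2-fold higher against 10.7% of all genes and none at least 2-fold lower, with a median of 0.85. Mt1 had 30.2 CPM (23.9 to 37.6) in WT members and 314 CPM (288 to 342) in N-LKO members, Lcn2 14.3 and 97.2 CPM, Saa1 65.7 and 198 CPM, and Orm2 9.81 and 31.4 CPM. In the N-LKO Malat1-poor barcodes these genes were higher still, at 1467, 389, 735 and 132 CPM. Non-hepatocyte barcodes of N-LKO had 362 CPM of Mt1 and 115 CPM of Lcn2, above the members. Serpina3k had 3859 and 711 CPM and Hamp, which encodes the iron hormone hepcidin, 2030 and 498 CPM. The Saa genes are close copies.

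Respiratory chain genes encoded in the nucleus were lower as a group in the N-LKO members. Of 75, 73 had a ratio under 0 and 53 were at least 2-fold lower against 8.34% of all genes, with a median log2 ratio of −1.24. In Malat1-poor barcodes the median was 0.04 and none passed 2-fold. The median was −0.45 at matched long-gene share and −1.35 without barcodes carrying further markers. Uqcrq, a complex III subunit, had 1048 CPM (1009 to 1088) and 262 CPM (238 to 288). The 2 genes not lower were Ndufs1 (57.4 and 64.6 CPM) and Ndufs4 (107 and 119 CPM), which were at −0.27 and −0.18 at matched share. Ribosomal protein genes had a median of −0.45 over 78 genes, which was 0.18 in Malat1-poor barcodes and 0.52 at matched share. Of these genes, 70 had a ratio under 0 in the members. Mitochondrially encoded mRNAs had a median of −0.22, which was 0.37 at matched share, and fatty acid oxidation genes −0.64 over 27.

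Genes of zonation were lower in N-LKO members. Periportal genes had a median of −1.33 over 17 genes, 11 of them at least 2-fold lower. Pericentral genes had −0.85 over 13, with 6 at least 2-fold lower. Over all genes 8.34% were at least 2-fold lower. Glul, glutamine synthetase of the pericentral rim, had 364 and 72.9 CPM in members and 394 and 80.8 CPM in Malat1-poor barcodes. Oat, ornithine aminotransferase, had 233 and 26.1 CPM, and Pck1, of gluconeogenesis, 1186 and 616 CPM. Cyp2e1 had 548 and 306 CPM.

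Of 10 tested nuclear retained RNAs, 7 were at least 2-fold higher in N-LKO members, against 30.9% of all genes. Their median was 1.28, and 0.35 at matched long-gene share. Neat1 had 1084 CPM (1045 to 1125) and 2810 CPM (2731 to 2891), a log2 ratio of 1.37, which was −0.18 at matched share. Pvt1 had 23.0 and 232 CPM, 3.32 and 2.42 at matched share. Mlxipl, the carbohydrate response factor whose mRNA is retained in hepatocyte nuclei, had 294 and 431 CPM, 0.55 and −0.80 at matched share. Growth factor receptors were mixed: of 14, 10 had a ratio over 0 and 6 were at least 2-fold higher, against 30.9% of all genes, with a median of 0.85, which was −0.04 at matched share. Egfr had 748 CPM (715 to 781) and 1652 CPM (1592 to 1715), 1.14 and −0.02 at matched share. Insr, the insulin receptor, had 177 and 332 CPM, 0.91 and −0.06 at matched share. Fgfr2 had 91.3 and 148 CPM, 0.69 and −0.58 at matched share. Nrp1 had 82.7 and 174 CPM, 1.07 and 0.34 at matched share, and Prlr, the prolactin receptor, 74.7 and 322 CPM, with 0.96 at matched share. Erbb4 had 472 and 308 CPM, −0.61 and −1.71 at matched share. The kinase Braf had 80.4 and 175 CPM, 1.12 and 0.25 at matched share. Each receptor named here spans over 100 kb, as does Braf, and so counts in the matched share.

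Of 18 hepatocyte transcription factors, 4 were at least 2-fold higher against 30.9% of all genes, and 1 at least 2-fold lower against 8.34%. Their median was 0.52 against 0.54 over all genes, and 0.07 against 0.17 at matched share. Onecut1 had 18.9 CPM (14.0 to 24.9) and 155 CPM (137 to 175), a log2 ratio of 3.03, which was 2.33 at matched share and 1.16 without barcodes carrying further markers. Ppara, the fatty acid sensor, had 351 and 1041 CPM, 1.57 and 0.56 at matched share, and Nr1h4, the bile acid receptor, 224 and 523 CPM, 1.22 and −0.13. Cebpa, a gene with no introns, had 84.2 and 37.3 CPM, −1.16 and −0.52 at matched share. Hnf4a had a ratio of 0.30 (0.10 to 0.49), which was −0.27 at matched share.

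Of the genes that the study followed as tumor or growth genes, Spp1 (osteopontin) had 43.4 CPM (35.8 to 52.1) in WT members and 194 CPM (173 to 216) in N-LKO members, with 289 CPM in N-LKO non-hepatocyte barcodes. Krt8 had 241 and 212 CPM (−0.19, and 0.34 at matched share) and Krt18 79.6 and 114 CPM, against 262 and 478 CPM and 89.1 and 207 CPM in Malat1-poor barcodes. Fabp5 had 20.4 and 49.2 CPM, with 222 CPM in N-LKO non-hepatocyte barcodes, and Cd36, a fatty acid transporter, 86.1 and 203 CPM, with 505 CPM there. Epcam had 3 and 9 UMIs and Afp 3 and 5, too few to read. Of 16 tested tumor-associated genes, 12 were at least 2-fold higher against 30.9% of all genes, with a median of 2.27, and 2.17 in Malat1-poor barcodes. The whole list summed to 567 CPM in WT members and 1137 CPM in N-LKO members. In barcodes under 500 UMIs it summed to 687 and 1243 CPM, above the members of each library. Among 14 growth suppressors 2 were at least 2-fold higher against 30.9% of all genes, with a median of 0.79, which was 0.23 at matched share. Apc had 81.9 and 128 CPM (0.64, and −0.16 at matched share), Trp53 17.0 and 30.2 CPM, and Cdkn1a 17.0 and 56.3 CPM. Dgat2, the enzyme of the last step of triglyceride synthesis, had 211 and 142 CPM.

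The lists of lipid and bile acid genes had medians below that of all genes. At least 2-fold higher were 6 of 23 genes of lipid uptake and storage, 2 of 20 of bile acids and 1 of 21 of cholesterol synthesis, against 30.9% of all genes. At least 2-fold lower were 4, 7 and 6, against 8.34%. The medians were −0.27, −0.28 and −0.68, against 0.54. Fabp1, the liver fatty acid-binding protein, had 8547 and 1522 CPM, and the lipid droplet gene Plin4 7 and 42 UMIs. Cyp8b1, which sets the kind of bile acid made, had 146 and 16.0 CPM, and the canalicular pump Abcc2 977 and 1325 CPM (0.44, and −0.47 at matched share). Insig1, which holds back cholesterol synthesis, had 246 and 48.6 CPM, and Sqle, a rate-limiting enzyme of that synthesis, 3.77 and 17.2 CPM. In the unfolded protein response, 3 of 20 genes were at least 2-fold higher against 30.9% of all genes, and 1 lower against 8.34%. The median was 0.07, against 0.44 in Malat1-poor barcodes. The chaperone Hspa5 had 505 and 448 CPM in members, and Calr 333 and 207 CPM, with 0.41 and 0.26 at matched share. Immediate early and heat shock genes, which rise during dissociation, had a median of 0.03 over 14 genes.

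**Figure D5:**
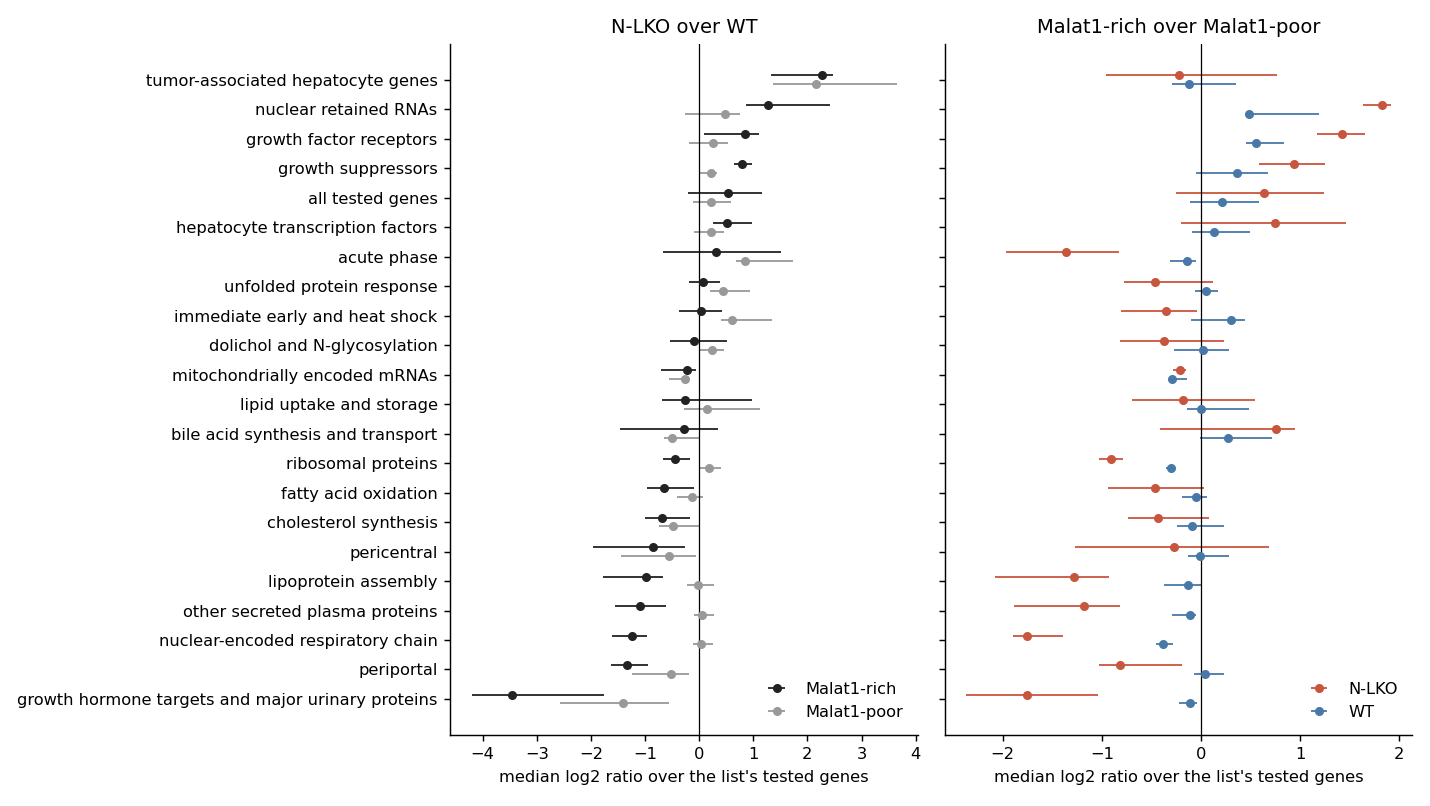
Median log2 ratio (points) and quartiles (bars) over the tested genes of 21 gene lists and of all genes, for N-LKO over WT (left; Malat1-rich in black, Malat1-poor in gray) and for Malat1-rich over Malat1-poor (right; N-LKO in red, WT in blue). In N-LKO over WT, the respiratory chain, other secreted plasma proteins and lipoprotein assembly lie below 0 in Malat1-rich barcodes and near 0 in Malat1-poor ones.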

How the data were processed

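Gene counts per barcode in 1 WT and 1 N-LKO library were used as deposited. Per the file headers the authors made these UMI counts with Cell Ranger 7.1.0, and the submitters' processing notes also name Seurat and mm9. The 32285 gene identifiers were matched to GENCODE M21, which gave a span to 32235. That annotation is of GRCm38, so it was used only for names, classes and spans, and no coordinate is given. Whether introns were counted, and whether the matrices were filtered, was not given in the sources used here. If introns were counted, long genes gain UMIs from nuclear RNA.

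The members, gene lists and named genes were chosen with earlier results of these data known. UMIs were summed over the barcodes of a class and scaled to CPM, with exact Poisson intervals (95%). Ratios have exact binomial intervals conditional on both counts and use 0.5 UMI added to each sum. Medians have binomial order-statistic intervals over genes. With 1 library per genotype no test was run. Genes with at least 5 CPM in 1 class were kept, without the genes of the rule. The calculations were tested on simulated data. Doublets were scored with Scrublet (scanpy 1.11.5) and kept; 88 WT and 71 N-LKO members scored over 0.25.

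Named were 26 genes of the study, the 10 highest and 10 lowest in N-LKO over WT and in both Malat1-rich over Malat1-poor comparisons (at least 20 CPM in 1 class, ranked by the interval bound nearest 0), and the extremes and most abundant gene of each list. Hnf4a, Cps1, Abcb11 and Apoa1 were added for the label check, and some genes that the rule names are not reported here. The free RNA profile came from barcodes under 500 UMIs and was subtracted at the upper limit from marker lists of other cells. Alternatives changed the limits on Malat1, mitochondrial share, depth, Cps1, further markers and Scrublet score, the CPM total, barcode weights, free RNA, the filter and the UMIs added (5). Python 3.11.15, scipy 1.17.1 and pandas 2.3.3 were used.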

Additional observations from a re-analysis of the deposited data

Results flagged for a closer look

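Some results of 1 contrast had opposite signs in the 2 groups, with intervals on opposite sides of 0. The difference between the groups was not tested. For N-LKO over WT, the log2 ratio in Malat1-rich and then in Malat1-poor barcodes was −0.97 and 0.46 for Mrps24, −1.73 and 0.14 for Cox7a2, −1.60 and 0.32 for Ndufa4, −1.55 and 0.26 for Dbi, −1.46 and 0.27 for Urah, −1.46 and 0.13 for Ttr and −0.94 and 0.088 for Pck1. It was −0.17 and 0.79 for Hspa5, −0.68 and 0.47 for Calr, −1.76 and 0.42 for Mup20 and 0.051 and −0.052 for mt-Cytb. The median over ribosomal protein genes was −0.45 and 0.18.

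For Malat1-rich over Malat1-poor, the log2 ratio in WT and then in N-LKO was 1.17 and −0.56 for Spp1, 0.40 and −0.56 for Sult2a8, 0.32 and −1.04 for Etnppl and 0.21 and −0.82 for Pck1.

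Barcodes of at least 500 but under 1000 UMIs, which the depth limit leaves out, also held members by the other conditions: 279 of 1804 hepatocyte barcodes in WT (15.5%, 13.8 to 17.2) and 252 of 499 in N-LKO (50.5%, Clopper-Pearson interval 46.0 to 55.0).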

How the results depend on the processing

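No paired analysis was possible because each group has 1 library. With 1 library per genotype, depth and the number of barcodes limit only the counting error. The limit for a move was the counting interval for shares and genes, the interval over genes for medians and a fixed factor for counts of genes. Of the values that answer a comparison, 130 stayed within this limit across the alternatives and 44 moved past it. Of the other values 2016 stayed within it, 630 moved past it and 42 changed sign. The cause was not tested for any of them. Values below are the WT and N-LKO share of Malat1-rich barcodes, the median log2 ratio of N-LKO over WT over all genes, a list or a gene, and counts of genes past 2-fold.

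With Malat1 at least 0.5%, the shares were 58.3% and 69.0%, 554 genes were lower, and the respiratory chain median was −0.83; mt-Cytb was at −0.026 and Hspa5 at 0.088, and Spp1 in Malat1-rich over Malat1-poor N-LKO barcodes at 0.15. With Malat1 at least 2%, the shares were 9.62% and 18.9%, the all-gene median 0.35, the respiratory chain −1.50, Mlxipl −0.086, and Spp1 in Malat1-rich over Malat1-poor WT barcodes −0.16.

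With at most 10% mitochondrial UMIs (218 WT and 220 N-LKO members), the shares were 54.9% and 75.9%, the all-gene median 0.20, the lower genes 1471, nuclear retained RNAs 0.50, mitochondrially encoded mRNAs 0.24, other secreted plasma proteins −0.41 and Nus1 −0.65. There Krt18 was at −0.44, Fgfr2 −0.14, Nrp1 −0.087, Abcc2 −0.045, Calr 0.41, Hspa5 0.27, Cebpa 0.35, mt-Nd6 0.057, Mlxipl −0.62, Gm31508 −0.24, Ighm −3.76, and Spp1 in the WT Malat1-rich over Malat1-poor comparison −0.54. With no mitochondrial limit the shares were 24.1% and 46.6%, the all-gene median 0.49 and mitochondrially encoded mRNAs 0.032.

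With at least 2000 UMIs, the shares were 38.2% and 42.1%, the all-gene median 0.59, the respiratory chain −1.40, mt-Cytb −0.038 and Ighm in WT Malat1-rich over Malat1-poor −0.28. With Cps1 at least 5 UMIs, the WT share was 37.0%, the all-gene median 0.51, the respiratory chain −1.37 and that Ighm ratio −0.20. Without any further marker of other cells, the shares were 25.2% and 33.2%, the all-gene median 0.77, the lower genes 1701, the respiratory chain −1.35, Alg13 −0.21, Ghr 0.0075, and Alb in WT Malat1-rich over Malat1-poor 0.018.

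Free RNA was subtracted at its upper limit, so more than the free RNA may have been removed. With this subtraction, acute phase genes had a median of −1.74, other secreted plasma proteins −2.80 and fatty acid oxidation 0.76. Nus1 was at −1.79, Rps29 at 0.088 and the median of all genes at 0.81. There the respiratory chain, ribosomal, mitochondrially encoded and growth hormone lists gave no value, because under 0.5 of their genes kept more than 3 UMIs. CPM without Malat1 and mitochondrial genes gave an all-gene median of 0.50. A filter of 20 CPM left 2024 higher genes, and no filter gave 6745 higher and 1527 lower genes and a median of 0.65.

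Matched on the long-gene share, the all-gene median was 0.17, the higher genes 2312, nuclear retained RNAs 0.35, the respiratory chain −0.45, other secreted plasma proteins −0.55, mitochondrially encoded mRNAs 0.37 and ribosomal proteins 0.52. Genes that changed sign there were Abcc2 (−0.47), Fgfr2 (−0.58), Insr (−0.061), Egfr (−0.017), Rps29 (0.52), Neat1 (−0.18), Mlxipl (−0.80), Nr1h4 (−0.13), Hnf4a (−0.27), Hspa5 (0.41), Calr (0.26), Gm31508 (−0.78) and Apc (−0.16).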

Other observations

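Gm42418, a gene that overlaps ribosomal RNA, took 0.852% of UMIs in WT members and 3.72% in N-LKO members, against 0.764% and 1.61% in Malat1-poor barcodes. It took 5.70% and 12.4% in barcodes under 500 UMIs.

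Long noncoding RNAs were at least 2-fold higher in N-LKO members in 291 of 652 tested genes (44.6%) and at least 2-fold lower in 80 (12.3%), against 3174 and 857 of 10582 protein-coding genes.

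At an equal long-gene share of 25 to 30%, mitochondrial genes took 6.91% of UMIs in WT members and 15.2% in N-LKO members, and ribosomal protein genes 19006 and 16744 CPM. From 10 to 15%, ribosomal protein genes took 36482 CPM in 840 WT members and 67137 CPM in 86 N-LKO members.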
